A study of Mus musculus with 2 samples.

Results

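Basal progenitors (BPs) of the embryonic telencephalon are neuron-producing progenitors that leave the ventricular surface, where their mother cells, the apical progenitors (APs), divide. The T-box factor Eomes is their classical marker in the pallium, and the basic helix-loop-helix (bHLH) factor Neurog2 drives APs of the pallium into the glutamatergic lineage. Neurog factors switch on Delta ligands, which activate Notch in neighbouring cells, and a cascade of NeuroD and Nhlh factors follows as the cell becomes a neuron. Eomes is not exclusive to BPs, as its transcript is still found in newborn glutamatergic neurons.

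The cells described here are the barcodes of a septal single cell library that carry *Eomes* and *Neurog2* together. They were selected on measured transcript counts: a mitochondrial share under 4%, at least 2 unique transcript molecules (UMIs) of *Eomes*, at least 1 of *Neurog2*, and 0 of *Trp73*, *Dlx1* and *Dlx2*, which are markers of Cajal-Retzius and subpallial cells. The rule found 459 cells among 5649 barcodes within the mitochondrial limit (8.13%), 5827 barcodes in the library and 20110 in the series. They are compared with the remaining 5190 barcodes within the limit. As *Eomes*, *Neurog2*, *Trp73*, *Dlx1* and *Dlx2* chose the cells, and as every other gene was measured in the same cells, all values below are descriptions and none is a test.

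The library was pooled from septal explants of 8 E11.5 *PGKCre;Rosa26YFP* embryos and 4 E12.5 *Dbx1Cre;Rosa26tdTomato* embryos, each from 2 litters, on a C57BL/6J background, which GEO's labels give as wild-type. *PGK* drives Cre broadly, whereas *Dbx1Cre* marks only cells with a history of *Dbx1*, so that YFP and tdTomato transcripts differ between the embryos of the pool in age, genotype and lineage at once. The other library holds the telencephalic vesicles of 3 wild-type C57BL/6J embryos from 2 litters, labelled E12 and given as E11.5 to E12 in the study's methods, and was used only to see whether the same rule gives the same genes. No treatment was given, each tissue is 1 pooled library whose embryos cannot be separated, and cells are not replicates, so no p-value is given. The libraries share 1 barcode, and none among the selected cells.

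The *Eomes*+*Neurog2*+ cells held 4322 to 51159 UMIs (median 11747) and a median of 3439 genes, against a median of 13024 UMIs in the other barcodes. Levels are UMIs summed over the cells of a group per 1000000 UMIs of all genes (CPM), with an exact Poisson 95% interval, and a fold is a ratio of such levels with its 95% counting interval. Intervals cover counting error only. A gene was compared when the mean level of both groups was at least 10 CPM, and counted as higher or lower from a fold of 2. By this rule 347 of 7746 genes were higher (4.48%) and 376 were lower (4.85%), and the median gene had a log2 fold of 0.0053. *Eomes* itself stood at 503 CPM against 27.1 CPM in the other barcodes and *Neurog2* at 998 against 86.7 CPM, as the rule requires.

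Markers of BPs were at higher levels in these cells. All 12 compared members of a BP marker list other than *Eomes* and *Neurog2* were higher than in the other barcodes, with a median fold of 5.21, beside 4.48% of all genes. *Eomes* and *Neurog2* of this list chose the cells, and the list was made with earlier results of these data known. The values therefore describe the cells and do not test the label. *Neurod4* (chromosome 10, 130268152 to 130280240, minus strand of GRCm38), a bHLH factor of neurogenic progenitors, stood at 41.6 CPM (interval 36.6 to 47.0) against 1.51 CPM. Its fold of 27.6 (22.0 to 34.7) was the highest among the genes named. A *Neurod4* UMI was found in 124 of the 459 cells (27.0%) and in 1.64% of the others. *Tfap2c* (chromosome 2, 172549593 to 172558622, plus strand), an AP2 factor of pallial progenitors, stood at 108 against 25.9 CPM, a fold of 4.16 (3.804 to 4.55). It was found in 50.1% of the selected cells, 21.5% of the others and 15.8% of APs. With each cell thinned to 7500 UMIs, which left out 19 of the selected cells and 475 of the others, these shares were 40.9% in the selected cells and 14.4% in the others, in the same order.

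The remaining BP markers fell in the same direction. *Insm1*, a zinc finger factor needed for BP formation, stood at 101 against 17.7 CPM (fold 5.69, interval 5.16 to 6.26). *Gadd45g*, a growth arrest gene downstream of neurogenic bHLH factors, stood at 981 against 188 CPM (5.22, interval 5.07 to 5.38). *Hes6*, which counteracts Hes1, stood at 956 against 317 CPM and was in 97.6% of the cells. *Btg2*, the antiproliferative gene that marks neurogenic divisions, stood at 461 against 175 CPM, the second smallest rise of the list after *Rcor2* (2.33-fold).

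The same gate also held neuronal transcripts in many cells. *Tbr1*, a factor of postmitotic glutamatergic neurons, was found in 69.1% of the 459 cells (exact Clopper-Pearson 95% interval 64.6 to 73.3%), *Neurod2* in 70.6% and *Rbfox3*, which codes for the neuronal splicing factor NeuN, in 63.2%. In APs selected by *Hes5* (at least 2 UMIs, and 0 of *Eomes*, *Neurog2*, *Trp73*, *Dlx1*, *Dlx2*, *Neurod1*, *Neurod2* and *Neurod6*; 903 cells, median 14695 UMIs), which should lack *Tbr1* and *Rbfox3*, these 2 genes were in 7.20% and 6.31% of cells. *Slc17a6*, the vesicular glutamate transporter, was in 42.7% of the selected cells and in 0.89% of APs. The selected cells therefore ran from progenitors to cells with neuronal genes, and are called *Eomes*+*Neurog2*+ cells here.

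Among the 20 genes with the highest folds, several belong to the bHLH cascade. *Neurog1*, the paralog of *Neurog2*, stood at 416 against 49.4 CPM (fold 8.42, interval 8.00 to 8.86) and was found in 62.7% of the cells. *Neurod6* stood at 236 against 28.6 CPM (8.26-fold) and *Nhlh1* at 147 against 19.7 CPM (7.48-fold). Over the whole bHLH list, 9 of 10 compared members were higher and 1 was lower, with a median fold of 6.63. Against the neurons described below, 4 of 10 were higher and none was lower (median fold 1.20).

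The other genes of this group are of mixed function. *Sstr2* (chromosome 11, 113619342 to 113626028, plus strand), a somatostatin receptor, stood at 160 against 7.31 CPM, a fold of 21.9 (19.7 to 24.3), and was in 57.3% against 5.28% of cells. *Igsf8*, an immunoglobulin superfamily membrane protein, stood at 530 against 60.1 CPM (8.81-fold). *Sstr2* overlaps *Slc39a11* on the opposite strand, others of the highest genes also overlap a gene of the opposite strand, and Cell Ranger, run with default parameters on this library, counts reads of the gene's own strand. *Rbfox3* also overlaps *Gm25040* and *Gm11749* on its own strand, where strand does not tell reads apart. The arginine methyltransferase *Prmt8* was 13.5-fold higher, the heparan sulfate sulfotransferase *Hs3st1* 10.2-fold, *Rbfox3* 10.0-fold and *Optc*, which codes for the small proteoglycan opticin, 9.92-fold. The metal transporter *Slc30a10* was 9.58-fold higher and the factor *Ebf2* 9.22-fold. Between 8.90-fold and 7.04-fold higher lay *Abcb9* (a lysosomal peptide transporter), *Ripply3* (a corepressor), *Ppp1r14a* (an inhibitor of myosin phosphatase), *Chrnb4* (a nicotinic receptor subunit), *Eya2*, the Scratch repressor *Scrt2*, *3110035E14Rik* and the rhomboid-like *Rhbdl3*.

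**Figure D1:**
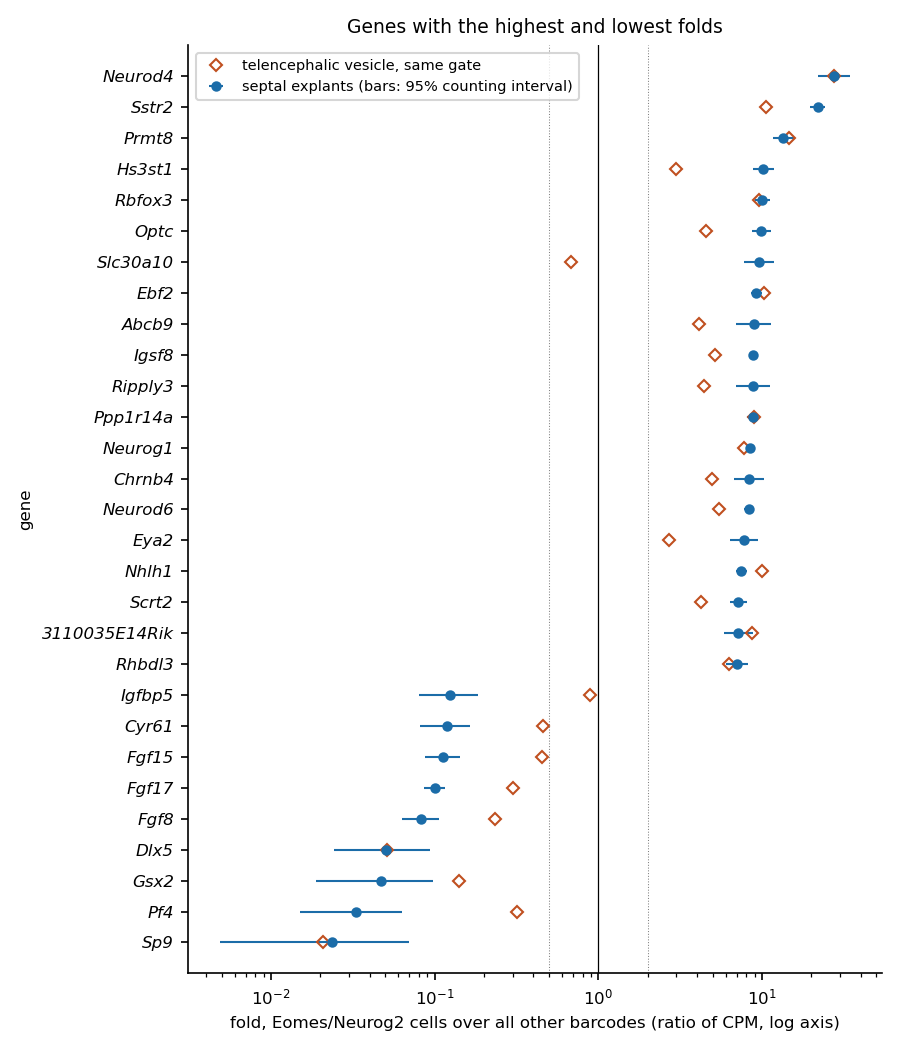
Ratio of the level in *Eomes*+*Neurog2*+ cells to that in all other barcodes, on a log axis, for the 20 genes with the highest folds and 9 of the 10 with the lowest in the septal explants (filled points, bars for the 95% counting interval), and for the same gate in the telencephalic vesicle (open diamonds); dotted lines mark folds of 0.5 and 2. *Neurod4* lies at 27.6 in both libraries, *Slc30a10* is the one gene of the upper group that falls below 1 in the vesicle, and *Igfbp5* lies near 1 there.

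The 10 genes with the lowest folds were mostly of the subpallium and of the rostral signalling centre. The subpallial factors *Sp9* (0.024-fold, 3 UMIs in all 459 cells), *Gsx2* (0.047-fold) and *Dlx5* (0.051-fold) were nearly absent, in cells that the rule had cleared of *Dlx1* and *Dlx2*. *Fgf8* stood at 9.86 against 119 CPM (0.083-fold, interval 0.063 to 0.107), *Fgf17* at 30.2 against 301 CPM (0.101-fold) and *Fgf15* at 11.3 against 101 CPM (0.112-fold). These are ligands of the rostral patterning centre that abuts the septum. *Cyr61*, a matricellular protein, and *Igfbp5*, which binds insulin-like growth factors, were at 0.118 and 0.124. The platelet gene *Pf4* was at 0.033, a ratio of summed UMIs, while the share of cells with a UMI was 1.96% in the selected cells and 1.70% in the others.

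The same rule applied to the telencephalic vesicle found 594 of 11414 barcodes (5.20%). There 211 of 9193 compared genes were higher (2.3%) and 119 were lower (1.29%), and the median log2 fold was -0.0016. Of the 20 genes highest in the septal explants, 19 were at least 2-fold higher in the vesicle too, with a median fold of 5.88, although only 11 of the 20 reached the level needed for comparison there. Of the 10 lowest, 9 were at or below 0.5. Levels themselves were not compared between the libraries, which differ in kit, software version and tissue. *Neurod4* had a fold of 27.6 (22.2 to 34.5) there, *Prmt8* of 14.5 and *Ebf2* of 10.3. *Slc30a10* was at 0.68 in the vesicle (interval 0.39 to 1.10, 17 UMIs), and *Igfbp5* at 0.890 (0.821 to 0.964).

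Stretches of promoters are shown to let the E-box letters be seen in genes of the highest group, which holds several bHLH genes. Promoters are those of RefSeq on GRCm38.p6, and 250 bases before each start site were searched on both strands for the letters CAGATG, an E-box of the kind that neurogenic bHLH factors bind, and GGTGTGA, letters of the T-box consensus. A promoter was matched for 14 of the 20 highest genes. CAGATG was found in 3 of these 14 (21.4%), beside 16.3% of all 27025 genes with a promoter, and GGTGTGA in 0 of 14, beside 3.84% of all genes. A match of letters is not a binding site. The E-box letters, or their reverse complement CATCTG where the motif lies on the other strand, are in capitals in the stretches below, each written 5′ to 3′ along the gene's strand, from *Nhlh1* (chr1:172057770-172057823, minus strand), *Ppp1r14a* (chr7:29289111-29289164, plus strand) and *Optc* (chr1:133908160-133908213, minus strand).
Nhlh1: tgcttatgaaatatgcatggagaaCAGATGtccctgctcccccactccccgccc
Ppp1r14a: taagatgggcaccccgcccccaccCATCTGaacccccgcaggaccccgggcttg
Optc: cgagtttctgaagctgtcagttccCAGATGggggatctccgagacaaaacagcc

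Notch signalling genes lay on both sides. Among ligands, *Dll1* stood at 244 against 60.8 CPM in the other barcodes (fold 4.0, interval 3.77 to 4.25) and *Dll3*, a divergent ligand that acts within the cell, at 269 against 59.2 CPM (4.54-fold). The modifier *Mfng*, a fringe glycosyltransferase, was 4.0-fold higher, whereas its relative *Lfng* was at 0.42. The receptor *Notch1* was at 0.55. The target genes *Hes1* (20.5 against 117 CPM) and *Hes5* (21.9 against 121 CPM) were both at 0.18, and *Nrarp*, a feedback inhibitor, was at 0.29. In all, 12 of 19 members were compared, of which 4 were higher (*Dll1*, *Dll3*, *Mfng* and *Dner*), 4 were lower (*Lfng*, *Hes1*, *Hes5* and *Nrarp*) and 4 lay between. Among the other targets, *Hey1* lay between at 58.8 against 39.2 CPM (1.501-fold), and *Hey2* and *Heyl*, with 3 and 0 UMIs in the selected cells, did not reach the level for comparison.

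APs and glutamatergic neurons are the populations before and after BPs. Against APs, 697 of 7729 genes were higher in *Eomes*+*Neurog2*+ cells (9.02%) and 607 were lower (7.85%). Neurons were selected by *Slc17a6* (at least 2 UMIs, and 0 of *Hes5*, *Trp73*, *Dlx1* and *Dlx2*) among barcodes outside the 459, which gave 113 cells with a median of 12049 UMIs, 98 of them with *Tbr1*. *Eomes* was found in 57.5% of these neurons and *Neurog2* in 21.2%, and the removal of the 459 limits both. Against these, 366 of 7795 genes were higher (4.7%) and 537 were lower (6.89%). Genes used by a gate are not counted in its comparison. All 12 BP markers were higher than in APs (median fold 29.9), and 7 of 12 were higher than in neurons (median fold 2.81), the remaining 5 lying between. The AP gate takes out cells with *Eomes*, *Neurog2*, *Neurod1*, *Neurod2* or *Neurod6*. Its part in rises over APs, here and below, was not tested.

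The AP list fell in level towards the neurons. Of 15 compared members, 10 were lower than in the other barcodes and 5 lay between (median fold 0.32). *Sox2*, which maintains progenitors, stood at 224 CPM in APs, 45.7 CPM in *Eomes*+*Neurog2*+ cells and 21.7 CPM in neurons. *Pax6*, which precedes *Eomes* in the pallial lineage, stood at 129, 75.6 and 27.1 CPM. *Slc1a3*, the glutamate transporter of radial glia, stood at 43.9 and 5.75 CPM and was not detected in the 113 neurons. Each of these 3 genes took an intermediate level. *Vim* changed least of the list against APs next to *Prom1*, at 0.685-fold.

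**Figure D2:**
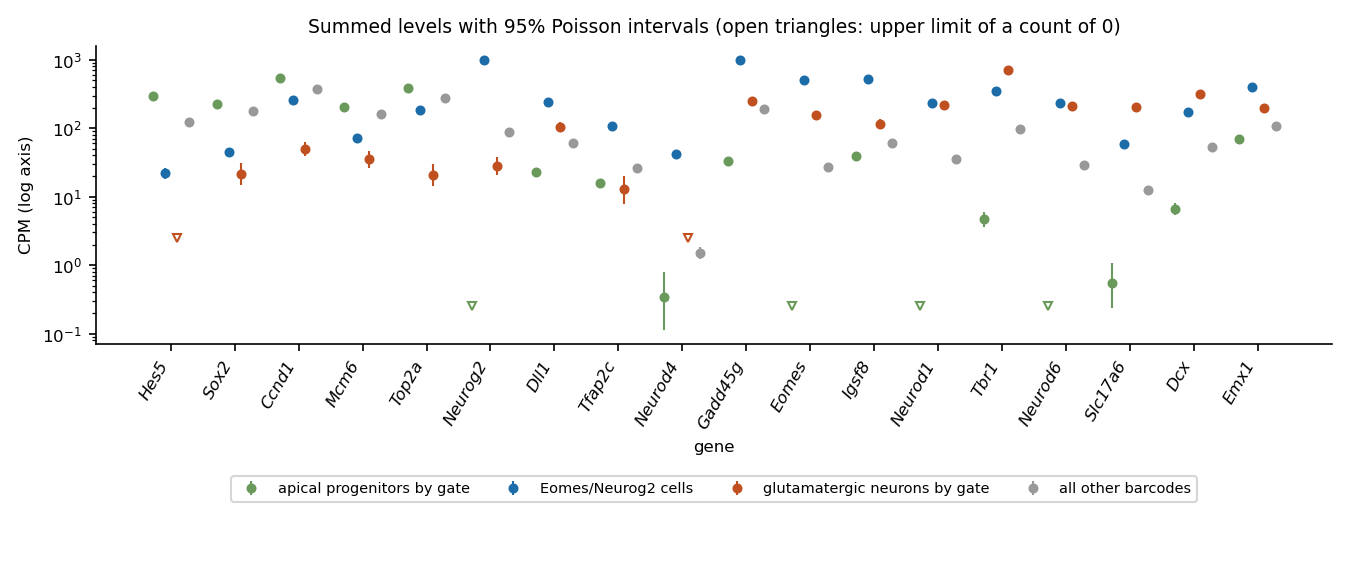
Summed level (CPM, log axis) of 18 genes in APs by gate (903 cells), *Eomes*+*Neurog2*+ cells (459), glutamatergic neurons by gate (113) and all other barcodes (5190), with 95% Poisson intervals. *Sox2* steps down from APs to neurons while *Dcx* steps up, *Neurod4* and *Igsf8* are highest in *Eomes*+*Neurog2*+ cells, and zeros of *Eomes*, *Neurog2*, *Neurod1* and *Neurod6* in APs and of *Hes5* in neurons are set by the gates.

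S phase genes and mitosis genes both had median folds below 1 against the other barcodes and APs and above 2 against neurons. Of 20 S phase genes, 10 were lower than in the other barcodes, 10 lay between and none was higher (median fold 0.49), with *Mcm6*, a subunit of the replicative helicase, at 72.5 against 162 CPM. Of 20 G2 and mitosis genes, all lay between (median fold 0.85), with *Top2a*, which untangles chromosomes, at 188 against 281 CPM. Against neurons, all 20 mitosis genes were higher (median fold 5.66), and against APs 2 were lower and 18 lay between (median fold 0.61). The G1 cyclin *Ccnd1* stood at 546 CPM in APs, 257 CPM here and 50.2 CPM in neurons. The cell cycle exit list had 5 of 10 members higher, among them the kinase inhibitor *Cdkn1c* (1613 against 652 CPM, 2.47-fold), and 1 lower, *Cdkn1a* (0.23-fold).

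The mitotic signal came from a minority of cells. UMIs of the 20 G2 and mitosis genes had a median of 9 per *Eomes*+*Neurog2*+ cell and a 90th percentile of 177, and 118 of 459 cells held at least 50 (25.7%, interval 21.8 to 30.0%). The share was 63.7% in APs, 43.6% in the other barcodes and 3.54% (4 cells) in neurons. Compared with the 341 remaining cells, the 118 had more *Tfap2c* (170 against 75.4 CPM), *Dll1* (336 against 195.2 CPM), *Gadd45g* (1320 against 803 CPM) and *Igsf8* (761 against 408 CPM). They had less *Tbr1* (134 against 465 CPM), *Calb2* (12.9 against 253 CPM), *Nhlh1* (77.9 against 184 CPM) and *Cdkn1c* (1054 against 1907 CPM). *Neurod4* stood at 41.1 and 41.8 CPM, with overlapping intervals. The 118 cells were deeper (median 16014 against 10967 UMIs), and the part of depth in these values was not tested.

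Early neuronal genes were compared with both populations. Of 16 early neuronal genes, 15 compared with APs were all higher (median fold 7.74), while against neurons 8 were lower, 8 lay between and none was higher (median fold 0.48). The tubulin *Tubb3* stood at 295 CPM in APs, 3921 CPM in *Eomes*+*Neurog2*+ cells and 6792 CPM in neurons, and *Dcx*, a microtubule protein of migrating neurons, at 6.61, 173 and 314 CPM. Neurofilament and axonal genes were the farthest behind, with *Nefl* at 0.08 and *Mapt* at 0.13 of the neuronal level. *Rbfox3* went the other way, at 4.13, 109 and 56.3 CPM, a fold over neurons of 1.94 (1.54 to 2.47).

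Migration and guidance genes had 9 of 15 compared members higher than in the other barcodes, 1 lower and 5 between (median fold 2.53). Against neurons, 1 of 15 was higher and 2 were lower (median fold 1.03). *Rnd2*, a small GTPase that Neurog2 is known to use in radial migration, stood at 345 against 52.5 CPM (6.58-fold) and at 345 CPM in neurons. The semaphorin co-receptor *Plxna2* was 6.71-fold higher than in the other barcodes and 3.33-fold higher than in neurons, and *Nrp1* was 5.86-fold higher. The netrin receptor *Dcc* (4.30-fold) and the slit receptor *Robo2* (5.13-fold) were also higher. The lower member was the Reelin adaptor *Dab1* (0.34-fold). In the adhesion list, the Scratch transcriptional repressors *Scrt1* (2.92-fold) and *Scrt2* (7.17-fold), and *Pard3* (2.0-fold) were higher, *Crb2* of the apical complex was lower (0.21-fold), and 8 members including N-cadherin, *Cdh2* (0.79-fold), lay between.

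**Figure D3:**
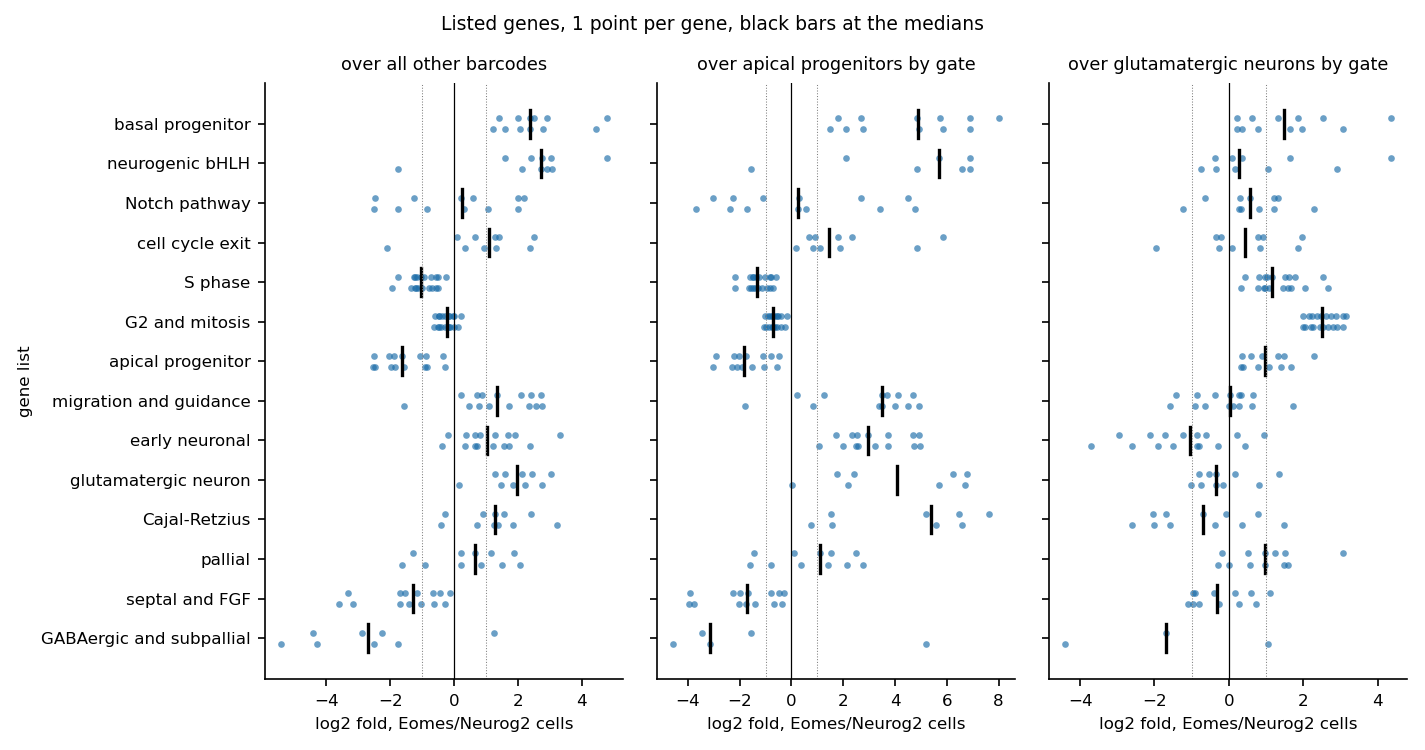
log2 fold of each compared gene of 14 lists in *Eomes*+*Neurog2*+ cells over all other barcodes (left), APs by gate (middle) and glutamatergic neurons by gate (right), 1 point per gene, with black bars at the medians and dotted lines at 2-fold; genes of the selection rule and of each gate are left out, the x axes differ, and a gene with no UMI in a group is placed at the bound of 3 counts. G2 and mitosis genes lie between the dotted lines on the left (median fold 0.85) and all lie beyond 2-fold on the right (median fold 5.66).

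*Emx1*, a homeobox gene of the pallium, stood at 393 against 106 CPM (fold 3.70, interval 3.54 to 3.88) and was found in 91.7% of the cells, against 48.0% of the others and 40.9% of APs. *Lhx2* stood at 886 against 313 CPM (2.83-fold). Of 11 compared pallial genes, 4 were higher (*Emx1*, *Lhx2*, *Dmrta1* and *Tfap2c*), 2 were lower (*Sfrp1* and *Gli3*) and 5 lay between. Of 14 compared septal and FGF genes, 9 were lower, 5 lay between and none was higher (median fold 0.41). The 5 between were the *Zic* genes, zinc finger factors of the septum and medial telencephalon, with *Zic1* at 290 against 392 CPM (0.74-fold) and in 84.3% of the cells. FGF feedback genes were lower, such as *Spry1* (0.44-fold) and *Etv5* (0.31-fold). Of the hem list, 4 of 12 genes were compared, with *Rspo1* (0.12-fold) and *Bmp7* (0.46-fold) lower and *Wnt8b* and *Rspo3* between.

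Of 10 compared glutamatergic neuron genes 9 were higher (median fold 3.94) and 1, *Sox5*, lay between. *Lhx9* stood at 214 against 39.3 CPM and *Id2* at 343 against 114 CPM. *Id2* was also 2.54-fold higher than in neurons, where *Lhx9* stood at 270 CPM. Against neurons, 1 of 10 compared genes of this list was higher and 1 was lower (median fold 0.79). Of 8 compared GABAergic and subpallial genes 7 were lower and 1 was higher, which was *Ebf1* (2.37-fold), a gene also on the Cajal-Retzius list. The rule cleared *Dlx1* and *Dlx2* from the selected cells and left cells with them among the other barcodes. *Gad1*, *Gad2* and *Slc32a1*, which make and load GABA, held 1, 4 and 0 UMIs in the 459 cells. Of 11 compared Cajal-Retzius genes, 7 were higher and 4 lay between, although *Trp73* was at 0 by the rule. The 7 included *Ebf2*, *Nhlh2* (5.34-fold), *Calb2* (170 against 69.6 CPM, 2.44-fold) and *Barhl2* (2.58-fold), whereas *Reln*, the defining secreted protein of these neurons, stood at 15.8 against 19.3 CPM. *Calb2* was in 110 of the 459 cells, with up to 64 UMIs in one. Against neurons, 1 of 11 compared Cajal-Retzius genes was higher and 5 were lower (median fold 0.62), and *Calb2* stood at 685 CPM in neurons.

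Protocadherins and *Dbx1*, which the study examined, were at low levels in these cells and in the other barcodes. *Dbx1*, a homeobox gene of septal and ventral pallial progenitors, was found in 27 of 459 cells (5.88%, interval 3.91 to 8.44%) against 512 of 5190 others (9.87%, interval 9.07 to 10.7%), and its level was 11.3 against 14.2 CPM (0.80-fold, interval 0.62 to 1.02). *Pcdh8* was in 28 cells (6.10%) against 10.96% of the others, at 6.57 against 10.7 CPM, too low for the comparison of levels. Thinned to 7500 UMIs, the shares for *Dbx1* were 4.09% and 7.13%. *Pcdh19* was lower (0.50-fold), and *Pcdh7*, *Pcdh9* and *Pcdh11x* lay between. The ventral pallial list had 3 of 8 members compared, of which *Sfrp2* was lower (0.21-fold) and *Dbx1* and the tdTomato transcript (10.4 against 9.99 CPM) lay between.

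Sums over the 27 cells with a *Dbx1* UMI are given beside those over the 432 without one. *Zic4* stood at 399 (interval 341 to 465) against 121 CPM and *Zic1* at 486 against 276 CPM. *Emx1* stood at 210 (169 to 260) against 407 CPM and *Neurod6* at 79.8 (55.0 to 112) against 248 CPM. *Cdkn1c* stood at 2545 against 1545 CPM. *Isl1*, a factor of septal and subpallial neurons, stood at 60.5 against 3.17 CPM, but its 25 UMIs came from 5 cells, with 14 in one. Median depths were 11171 and 11756.5 UMIs. The intervals do not cover the spread between cells, 27 cells of 1 library are few, and how many of their *Dbx1* UMIs are free RNA was not tested.

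Reporter transcripts were compared next. YFP, which only the E11.5 embryos carry, was found with at least 3 UMIs in 51.9% of the *Eomes*+*Neurog2*+ cells (interval 47.2 to 56.5%) and in 57.6% of the others (56.2 to 58.9%). With at least 1 UMI the shares were 70.2% and 70.4%. The selected cells are the shallower group, and these shares were not thinned. tdTomato, from *Dbx1*-lineage cells of the E12.5 embryos, was found with at least 1 UMI in 40 cells (8.71%, interval 6.30 to 11.7%) against 7.23% (6.54 to 7.96%), and 3 cells held it together with 3 or more YFP UMIs. Sums over the 40 tdTomato cells held less *Tbr1* (119 against 377 CPM), *Ebf1* (20.1 against 102 CPM) and *Stmn2* (348 against 909 CPM) than the 419 without it, and similar *Eomes* (490 against 505 CPM). A *Calb2* UMI was found in 0 of the 40 cells and in 26.3% of the 419. For this count of 0, 3 counts would be 7.50% of the 40 cells, which is no limit on cells that express the gene. Among the 238 cells with 3 or more YFP UMIs, *Neurod6* stood at 162 CPM and *Sstr2* at 121 CPM, against 320 and 215 CPM in the 137 cells without YFP, and *Fgf17* at 40.7 against 18.1 CPM. Age, genotype and lineage cannot be told apart in these values.

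To see how genes outside both lists vary among the *Eomes*+*Neurog2*+ cells, these were ranked on early neuronal over AP list UMIs and divided into 4 bins of 114 or 115 cells. Median depths were 13237, 11374, 11051 and 11836 UMIs. *Neurog2*, of which the rule requires at least 1 UMI per cell, stepped down from 1561 to 984, 782 and 522 CPM. *Tfap2c* stepped down from 192 to 100.03, 78.6 and 39.9 CPM, and *Dll1* from 397 to 226, 166 and 145 CPM. These genes were highest in the most AP-like bin, and *Neurog1* had the same order (634 to 215 CPM).

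Other genes peaked within the order. *Eomes*, of which the rule requires at least 2 UMIs per cell, stood at 345, 619, 625 and 467 CPM. *Igsf8* stood at 393, 704, 648 and 411 CPM, and *Sstr2* at 87.5, 215, 205 and 151 CPM. *Dll3* stood at 113, 324, 373 and 306 CPM, a course unlike that of *Dll1*. *Tbr1* stepped up from 81.4 to 322, 468 and 602 CPM, *Ebf1* from 35.1 to 213 CPM and *Calb2* from 15.0 to 415 CPM. The share of cells with at least 50 G2 and mitosis UMIs was 46.1% in the first bin and 27.0%, 20.9% and 8.77% in the following ones. In summed level *Cdkn1c* varied least of the genes plotted (1539 to 1682 CPM), and *Emx1* lay between 325 and 446 CPM. The median of *Cdkn1c* per cell went from 15 to 10, 10 and 7.5 UMIs over the bins.

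**Figure D4:**
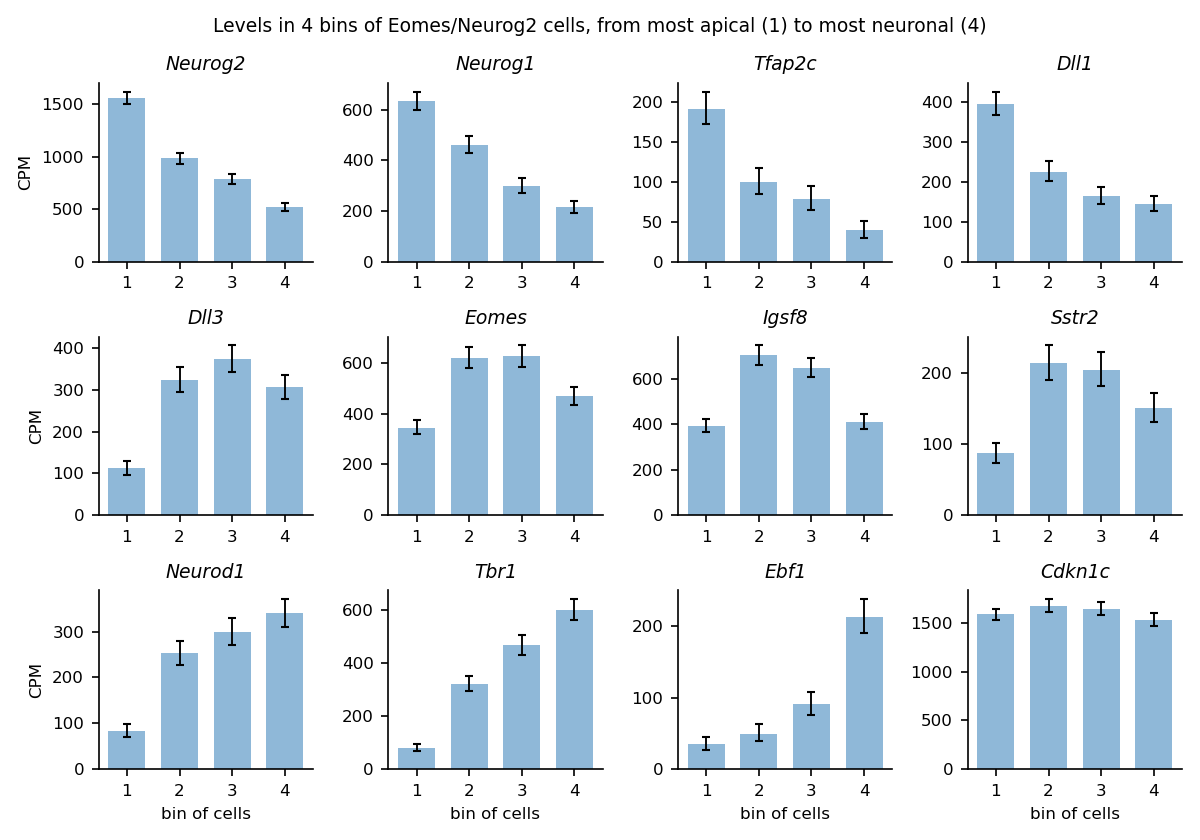
Level (CPM) of 12 genes in 4 bins of *Eomes*+*Neurog2*+ cells ordered by the ratio of early neuronal to AP UMIs (bin 1 most AP-like, bin 4 most neuronal; bars are sums over 114 or 115 cells, whiskers 95% Poisson intervals). *Neurog2* falls from 1561 to 522 CPM, *Eomes* is highest in the middle bins at 619 and 625 CPM, and *Tbr1* climbs from 81.4 to 602 CPM. *Neurog2* and *Eomes* are genes of the rule that chose the cells.

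Cells just inside and just outside the limits of the rule are given as values. Of the 459 cells, 61 held exactly 2 *Eomes* UMIs, and 112 further barcodes met all other criteria with 1. *Neurod4* stood at 15.7 CPM (12 UMIs) in the 61 and at 4.47 CPM (7 UMIs) in the 112, and *Sox2* at 70.7 and 125 CPM. The 182 barcodes with *Eomes* but without *Neurog2* had more *Tbr1* (787 CPM) and *Stmn2* (2356 CPM) and less *Neurod4* (2.09 CPM) than the selected cells. A further 37 barcodes were left out for *Trp73* alone and 50 for *Dlx1* or *Dlx2* alone, and *Rspo3*, which marks the hem, stood at 943 CPM in the 37 against 61.8 CPM in the 459.

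Markers of other cells were scarce. Macrophage, endothelial and mesenchymal lists summed to 1.15, 12.7 and 15.6 CPM, with none of their genes reaching the level for comparison; the highest of each were *Cx3cr1*, *Egfl7* and *Lum*, and *C1qb*, *C1qc*, *Csf1r*, *Aif1*, *Kdr*, *Flt1*, *Cdh5* and *Tie1* were at 0. Globin transcripts were in nearly every barcode, *Hbb-y* in 99.6% of the selected cells and 98.4% of the others. Of 9 blood genes 8 were lower and 1 lay between, with a list sum of 5722 CPM against 20070 CPM, and *Hbb-y* was the most abundant. In the 459 cells, 2 held 16486 and 14665 globin UMIs and the next 36. Without barcodes that held 1000 or more, globin stood at 602 CPM in the selected cells and 578 CPM in the others. The 7 blood genes compared with APs were all higher, in sums that hold these 2 cells. Of 11 immediate early and stress genes 7 were compared, with *Jun* lower (0.31-fold) and 6 between.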

How the data were processed

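Libraries were made with 10x Genomics 3' kits (v2 for the septal explants, v3.1 for the telencephalic vesicle). The authors deposited raw UMI counts per gene and barcode, made with Cell Ranger 2.1.1 at default parameters and, per the labels, 7.1.0, on mm10, with reporter sequences added for the septal explants. For the vesicle, whether intronic reads were counted is not given in the sources used here. Depth was 83103280 UMIs in 5827 septal and 194821794 UMIs in 14283 vesicle barcodes. Low counts limit the precision of weak genes.

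Counts were summed over cells and scaled to CPM. Intervals are exact (Poisson, conditional binomial or Clopper-Pearson, 95%), a count of 0 was set at 3 counts over the group in folds, and code was tested on simulated data. Genes named are the 20 highest and 10 lowest folds with at least 50 UMIs in the higher group and a mean of at least 10 CPM, without the 5 genes of the rule, mitochondrial genes, *Xist*, *Tsix* and Y-linked genes, plus the members of 24 gene lists, of which the text names some and counts all. Some genes, 1 of the 10 lowest among them, are not reported here. The members and lists were chosen with earlier results of these data known. Doublets were called with Scrublet in scanpy 1.11.5 at an expected rate of 4.52%. It marked 5 of 5649 barcodes (0.0885%), far below the expected rate, and whether it worked was not tested. The study also removed doublets with Scrublet, and whether the deposited barcodes had passed that step was not tested. Doublets were therefore kept, and barcodes with the highest scores were left out as an alternative. Bins along the neuronal to AP ratio and the division by mitosis UMIs were chosen after seeing the data. Sums, intervals and figures were made in Python 3.11.15 (numpy 2.4.6, pandas 2.3.3, scipy 1.17.1). Gene positions are those of GENCODE M21 (GRCm38). Alternatives were other limits, thinning, weighting, scaling and comparison groups.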

Additional observations from a re-analysis of the deposited data

Results flagged for a closer look

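Sequences outside the comparisons gave counts. LacZ, a sequence added to the gene list of the telencephalic vesicle, held 11 UMIs in 9 barcodes, of which 4 met the rule for *Eomes*+*Neurog2*+ cells, although the embryos are labelled wild-type. A sequence named IRESCRE held 27 UMIs in 25 septal barcodes and none in the 459 *Eomes*+*Neurog2*+ cells, where 3 counts would be 0.654% of cells.

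For 223 named and listed genes compared in the septal explants, a fold in the vesicle was also taken, with no level limit there. Of the 223, 19 went in opposite directions with both counting intervals on either side of 1. Of these, 3 reached 2-fold in one library. No share over all genes is given. The difference itself was not tested. *Robo1*, a slit receptor, had a fold of 2.13 in the septal explants (90 UMIs in the selected cells) and 0.75 in the vesicle. *Lhx1*, a LIM homeobox gene, had folds of 0.759 and 3.97. *Gli3*, a mediator of hedgehog signalling, had folds of 0.415 and 1.06.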

How the results depend on the processing

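The count of 459 cells stayed between 398 and 641 under other limits. The counts of 347 higher and 376 lower genes stayed within 1.5 times under most alternatives. With *Eomes* of at least 1 UMI, 234 genes were lower, and with a mean of at least 20 CPM 231 were lower. With at least 1 UMI in both groups as the only limit, 1475 genes were higher and 1945 lower. A fold of 1.5 gave 850 and 871, and a fold of 3 gave 138 and 122. Against APs, 697 were higher and 607 lower. The 20 highest genes stayed at least 2-fold higher under every alternative run, except against neurons, where 13 did (19 had a value against APs). The 9 lowest genes named stayed at or below 0.5, except *Sp9* (1.43), *Pf4* (2.15) and *Dlx5* (1.49) against APs, and the 8 with a value against neurons, where none did. Against neurons *Fgf17* (1.65), *Sox2* (2.1), *Mcm6* (2.05) and *Tbr1* (0.494) reversed, among other genes. For example, *Calb2* and *Dcx* were higher than in the other barcodes but lower than in neurons. *Pax6*, *Top2a* and *Ccnd1* were lower than in the other barcodes but higher than in neurons. The genes given here are not a full list of reversals. *Fgf15* (1.11), *Cyr61* (1.37), *Igfbp5* (2.02) and *Hes1* (1.26) also fell on the other side of 1 there, but on at most 24 neuron UMIs and with counting intervals that span 1, so that no reversal is shown, as for *Sp9*, *Pf4* and *Dlx5* against APs. Leaving out the 266 barcodes of highest Scrublet score, 30 of them selected cells, gave 376 and 444 genes. Leaving out barcodes with 1000 or more globin UMIs gave 333 and 385; both were chosen after seeing the data. No paired analysis was possible because each condition is 1 library. Depth limits shares of weak genes.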
